A study of Mus musculus with 8 samples.

Results

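The cytosolic ribosomal protein genes encode the protein subunits of the ribosome that translates nuclear messages. They were taken as all genes whose symbol is Rpl (large subunit) or Rps (small subunit) followed by a number and optional letters, together with Rplp0, Rplp1, Rplp2 and Rpsa, leaving out the S6 kinases and names that mark pseudogenes. A gene counted as measured where a transcript cluster of the array (a set of probes read as 1 unit) carried its symbol alone, and of several such clusters the brightest on average over the 8 arrays stood for the gene. This gave 39 genes among the 30738 genes measured, 24 of the large and 15 of the small subunit. RefSeq lists 84 protein-coding genes that match the same names, of which 38 were measured. The other 46 are not analysed here as genes, since 39 of them were named only together with other genes and 7 had no cluster under their name. The remaining member, Rpl6l, is listed in RefSeq as a pseudogene.

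The arrays came from primary mouse ependymal cell cultures, differentiated from radial glial progenitors in DMEM/F12 medium with serum for 2 weeks. In the EGF group the medium also held 20 ng/ml epidermal growth factor from the start of differentiation (4 arrays). The untreated group had the same medium without it (4 arrays). Groups follow the sample titles, while the source names of the same samples read MLN4924 for the EGF arrays and DMSO for the untreated arrays, a conflict that nothing in the sources used here settles. No strain, genotype or age is used here, and the labels do not say whether replicates were separate cultures, so p-values measure the spread between arrays, which may be technical.

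Ribosomal proteins assemble with ribosomal RNA in the nucleolus into a small subunit, which reads the message, and a large subunit, which joins amino acids. In mammals most of their messages begin with a C followed by a run of pyrimidines, the 5′ terminal oligopyrimidine (TOP) motif, through which mTORC1 and the RNA-binding protein LARP1 control their translation and stability. Ependymal cells are the multiciliated cells that line the brain ventricles, and radial glia are their progenitors.

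Values are the authors' log2 signals, without a further scaling, and 1 unit is a doubling. Over all genes the EGF arrays read higher: the median log2 difference was 0.17, and array medians over all clusters ran from 4.71 to 4.82 in the EGF group and from 4.56 to 4.6 in the untreated group. Pearson's r across clusters within a group was 0.994 to 0.995 for EGF and 0.996 to 0.997 for untreated arrays. The ependymal markers fixed for the label check were present in the untreated cultures and far lower with EGF: all 8 fell, and their summed linear signal was 522 to 572 on the EGF arrays, against 31573 to 47607 on the untreated arrays. These are bulk cultures, so fewer cells of a type and less RNA per cell cannot be told apart.

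Nearly the whole family was higher with EGF. Of the 39 genes 38 rose and 1, Rpl31, fell (limma, adjusted p under 0.05 over all genes). Over all genes 39.7% rose and 20.7% fell by the same rule. The family's median fold change was 0.89 on the log2 scale (quartiles 0.56 and 1.07), against a median of 0.17 over all genes. In 37 members every EGF array lay above every untreated array, and in 1 every EGF array lay below, a pattern that 34.0% and 19.9% of all genes showed. A rise of at least 2-fold was called for 13 members and a fall of that size for 0, against 6.25% and 7.42% of all genes. Tested against a change of 1.5-fold rather than 0 (limma's treat), 21 members rose and 0 fell, against 8.15% and 8.74% of all genes. The upper quartile of all genes was a log2 fold change of 0.365, and 34 of the 39 members lay above it.

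**Figure D1:**
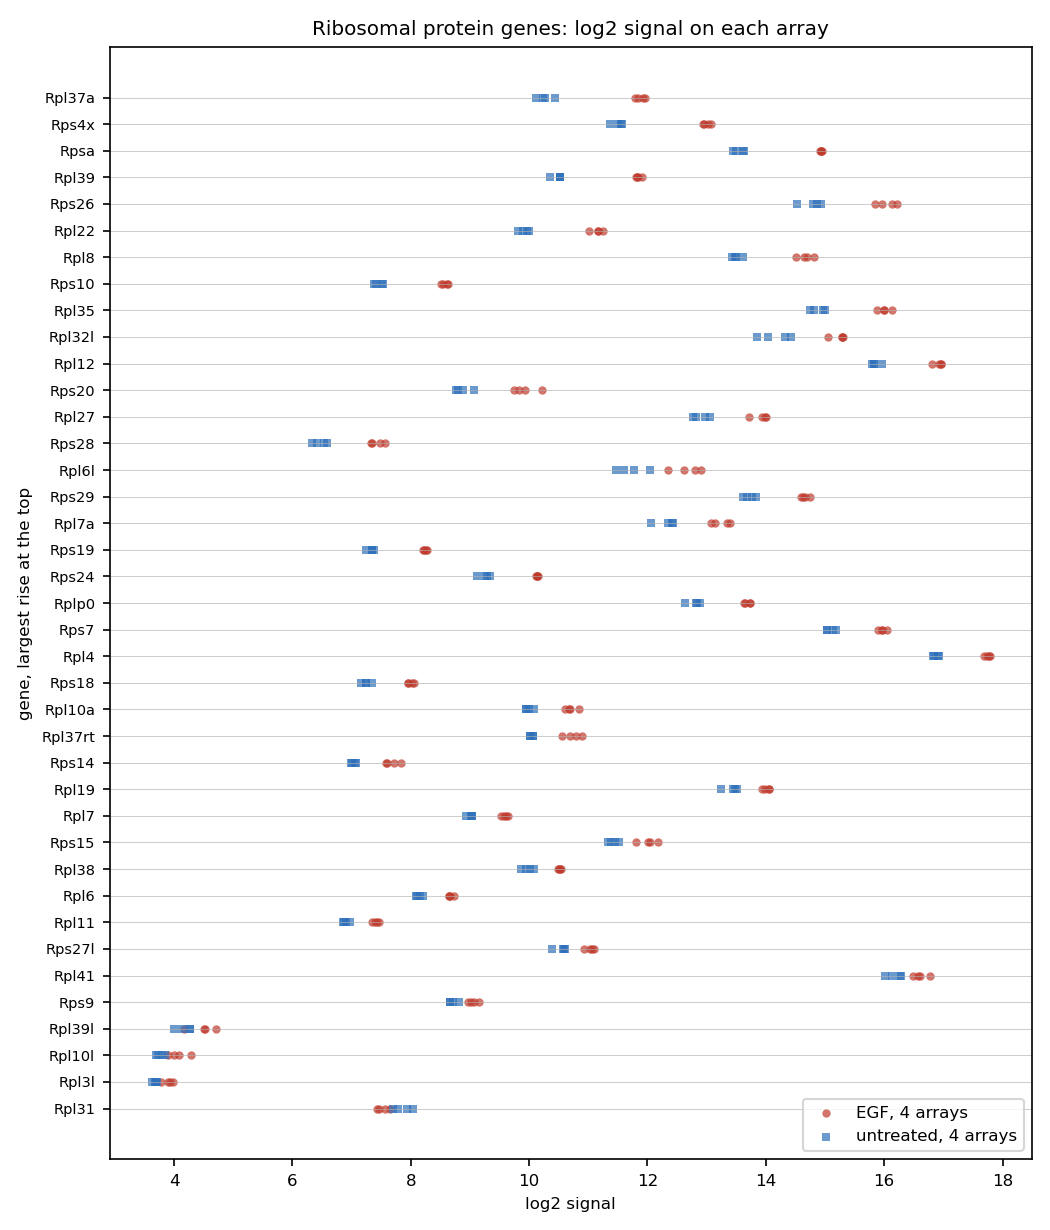
Log2 signal (x axis) of the 39 ribosomal protein genes (rows, largest rise at the top) on the 4 EGF arrays (red circles) and the 4 untreated arrays (blue squares). The circles lie to the right of the squares in 37 rows, the groups mix in the row of Rpl39l, and in the bottom row, Rpl31, the circles lie to the left; signals of different genes are not comparable as levels.

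The letters at the start sites show what the motif looks like in these genes. RefSeq promoter windows (build GRCm38.p6, 250 bases before to 50 after an annotated start) matched 33 of the 39 members. The first set shows members with a long unbroken pyrimidine run across the start or, for Rpl4, shortly before it, and the second the members with the largest rises; each line gives 20 bases before to 10 after the annotated start, 5′ to 3′ on the gene's strand, with the longest run of C or T in capitals where it has at least 5 bases.
Rpl38: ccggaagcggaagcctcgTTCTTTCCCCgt
Rps10: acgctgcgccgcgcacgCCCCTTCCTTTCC
Rps18: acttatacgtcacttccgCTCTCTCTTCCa
Rpl4: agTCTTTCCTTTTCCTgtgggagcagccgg
Rpl37a: gtcaCTTCCgctcgccggtctaaaaccgcg
Rps4x: aaagtctgaggctgggcggagcaacccagg
Rpsa: tggctgtgggttatttaaggacgtcatttc
Rpl39: CCCCCCCTaagctccgcctctagcgacttc
The windows shown lie at chr11:114668560-114668589 on the plus strand for Rpl38, chr17:27635235-27635264 on the minus strand for Rps10, chr17:33955656-33955685 on the minus strand for Rps18 and chr9:64173367-64173396 on the plus strand for Rpl4. Those of the second set lie at chr1:72711240-72711269 on the plus strand for Rpl37a, chrX:102189382-102189411 on the minus strand for Rps4x, chr9:120127746-120127775 on the plus strand for Rpsa and chrX:37085213-37085242 on the minus strand for Rpl39. The runs of Rpl38, Rps18 and Rpl4 were 10, 11 and 14 bases long, while no run of 5 bases stood in the letters shown for Rps4x and Rpsa. In the 50 bases centred on the start, the longest run of Rpsa was 5. An annotated start can differ from the start used in these cells.

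Counted over whole windows, 17 of the 33 members (51.5%) had a run of at least 8 pyrimidines in the 50 bases centred on a start, against 22.3% of the 27025 genes with a window. The letters CTTTCC, searched on the given strand, are pyrimidines alone and so can, but need not, lie within such a run, and stood in 16 members (48.5%), against 4328 of the 27025 genes. The letters CCGGAAG, a core that ETS-family factors such as GABPA bind, stood on either strand in 15 members (45.5%) against 9.93% of genes. The E-box CACGTG, which Myc binds, stood on either strand in 2 members (6.06%) against 8.09% of genes, GGGCGG on either strand in 16 (48.5%) against 38.2%, TATAAA on the given strand in 4 (12.1%) against 9.77%, and AAGATGGC on either strand in 1 (3.03%) against 3.19%. Within the family the median log2 fold change was 0.75 for the 17 members with a run of at least 8 and 0.90 for the 16 without one (ranges -0.33 to 1.36 and 0.22 to 1.61). It was 0.59 for the 15 members with CCGGAAG and 0.90 for the 18 without. For Rpl12, Rpl27, Rpl31, Rpl35, Rpl41 and Rpl7a the cluster ID names another chromosome than the window's. The lowest value, -0.33, is that of Rpl31. The low-signal members Rpl39l, Rpl10l and Rpl3l are included in these medians.

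In the large subunit 23 of 24 genes rose and 1 fell (median 0.79 on the log2 scale). The largest rise of the family was that of Rpl37a, a zinc-binding protein of the large subunit. Its log2 signals were 11.84, 11.93, 11.95 and 11.79 on EGF arrays 1 to 4, against 10.44, 10.23, 10.12 and 10.26 on untreated arrays 1 to 4. The lowest EGF array stood 1.35 above the highest untreated array. The log2 fold change was 1.61 ± 0.08 (SE, n = 4 each), which is 3.06-fold (adjusted p = 6.4e-08).

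Rpl39, a very short protein that lines the tunnel through which the new peptide leaves, followed. It read 11.90, 11.84, 11.82 and 11.81 on the EGF arrays, against 10.52, 10.52, 10.35 and 10.52 on the untreated arrays, again without overlap. Its log2 fold change was 1.36 ± 0.06 (adjusted p = 4.5e-08). Rpl22, an RNA-binding protein whose loss in the mouse mainly disturbs T cell development, read 11.16, 11.01, 11.16 and 11.24 with EGF, against 9.97, 9.99, 9.81 and 9.90 without. The groups stood 1.02 apart at their nearest arrays, and the log2 fold change was 1.23 ± 0.07 (adjusted p = 2.3e-07).

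Another 5 large-subunit genes rose at least 2-fold: Rpl8, which lies at the peptidyl transferase centre (1.16 ± 0.08), Rpl35 at the tunnel exit (1.11 ± 0.08), the gene copy Rpl32l (1.07 ± 0.12), Rpl12 of the stalk base (1.06 ± 0.07) and Rpl27 (1.01 ± 0.09). The adjusted p-values of these genes ran from 3.9e-07 to 3.6e-05. Rplp0, which anchors the acidic stalk that recruits elongation factors, read 13.73, 13.65, 13.63 and 13.73 on the EGF arrays, against 12.83, 12.82, 12.63 and 12.89 on the untreated arrays. Every EGF array was higher, and the log2 fold change was 0.89 ± 0.07 (adjusted p = 2.2e-06). Its partners Rplp1 and Rplp2 shared their clusters with other genes and are not analysed here.

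Members between 0.5 and 1 included Rpl6l (0.94 ± 0.15), Rpl7a (0.92 ± 0.10), Rpl4, which also lines the exit tunnel (0.87 ± 0.06), Rpl10a of the mobile stalk where spent tRNA leaves (0.71 ± 0.07), Rpl37rt (0.69 ± 0.08), Rpl19 (0.59 ± 0.07), Rpl7 (0.59 ± 0.06), Rpl6 (0.53 ± 0.06) and Rpl38, whose loss in the mouse disturbs Hox messages and the axial skeleton (0.53 ± 0.06). None of these overlapped between the groups. Rpl11, which with Rpl5 and 5S rRNA can bind the p53 regulator Mdm2, read 7.47, 7.35, 7.40 and 7.43 with EGF, against 6.87, 6.91, 6.85 and 6.98 without. It rose by a log2 fold change of 0.51 ± 0.06 (adjusted p = 4.0e-05), and Rpl5 is not analysed here.

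All 15 small-subunit genes rose, with a median log2 fold change of 0.92 and no overlap between the groups in any of the 15. Rps4x, which is encoded on the X chromosome, read 13.03, 13.07, 12.95 and 12.94 on the EGF arrays, against 11.57, 11.51, 11.37 and 11.56 on the untreated arrays. The groups were separated by 1.37, and the log2 fold change was 1.49 ± 0.07, or 2.82-fold (adjusted p = 3.7e-08). Rpsa, also known as the laminin receptor precursor, read 14.94, 14.95, 14.93 and 14.92 with EGF, against 13.63, 13.61, 13.44 and 13.50 without. The EGF arrays differed among themselves by only 0.03 and the untreated arrays by 0.19, and the log2 fold change was 1.39 ± 0.06 (adjusted p = 3.6e-08).

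Rps26, which touches the message upstream of the start codon, read 16.22, 16.14, 15.85 and 15.96 on the EGF arrays, against 14.87, 14.93, 14.53 and 14.79 on the untreated arrays. It varied more within groups than Rpsa did, yet the groups stood 0.92 apart (log2 fold change 1.26 ± 0.11, adjusted p = 3.9e-06). Rps10 and Rps20, which in human cells are marked with ubiquitin when ribosomes collide, rose by 1.11 ± 0.06 and 1.05 ± 0.11. These were the remaining small-subunit genes that rose at least 2-fold. Rps19, the gene most often mutated in human Diamond-Blackfan anaemia, read 8.26, 8.21, 8.22 and 8.27 with EGF, against 7.34, 7.37, 7.24 and 7.34 without. Both groups were tight and apart, and the log2 fold change was 0.92 ± 0.06 (adjusted p = 3.8e-07).

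Smaller rises were those of Rps28 (0.96 ± 0.08), Rps29 (0.93 ± 0.07), Rps24 (0.89 ± 0.06), Rps7 (0.87 ± 0.06), Rps18 of the subunit head (0.75 ± 0.06), Rps14 of the subunit platform (0.65 ± 0.07) and Rps15 (0.58 ± 0.09). Rps27l, a p53-inducible relative of Rps27, read 11.03, 11.06, 10.93 and 11.09 on the EGF arrays, against 10.59, 10.57, 10.61 and 10.38 on the untreated arrays. The groups did not overlap, and the log2 fold change was 0.49 ± 0.07 (adjusted p = 0.00021). The smallest rise of the subunit was that of Rps9, a protein at the message entry site that affects decoding accuracy. Rps9 read 9.16, 9.07, 9.01 and 8.97 with EGF, against 8.66, 8.66, 8.81 and 8.72 without, groups only 0.16 apart. Its log2 fold change was 0.34 ± 0.07 (adjusted p = 0.0016), and with each array centred on its median it was 0.15 (adjusted p = 0.144).

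The weakest rises of the large subunit came from genes used mainly in other tissues. Rpl39l, a copy of Rpl39 used in the testis, read 4.17, 4.50, 4.52 and 4.71 on the EGF arrays, against 4.26, 4.14, 4.00 and 4.26 on the untreated arrays. It is the only member whose groups overlapped (log2 fold change 0.31 ± 0.11, adjusted p = 0.037). Rpl10l, the testis copy of Rpl10, read 4.28, 4.08, 3.89 and 3.99 with EGF, against 3.70, 3.8, 3.73 and 3.84 without (0.29 ± 0.09, adjusted p = 0.0154). The groups were separated by 0.05. Rpl3l, the copy of Rpl3 used in heart and skeletal muscle, read 3.90, 3.77, 3.98 and 3.93 with EGF, against 3.71, 3.69, 3.62 and 3.67 without (0.22 ± 0.06, adjusted p = 0.0137). All 3 genes read below the median of each array, and none of the 3 passed under any of the 3 other scalings. Over genes with a mean signal of at least 6, tested alone, 35 of 36 members rose and 1 fell, against 42.3% and 36.0% of those genes.

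Rpl31, a large-subunit protein at the tunnel exit, was the only member to fall. Its signals were 7.43, 7.65, 7.47 and 7.57 on the EGF arrays, against 7.70, 8.04, 7.93 and 7.78 on the untreated arrays. All EGF arrays were lower, with 0.05 between the nearest arrays of the groups, and the log2 fold change was -0.33 ± 0.09 (adjusted p = 0.00875). The cluster used for Rpl31 has an ID that names chromosome 7, while RefSeq places the gene on chromosome 1. It is the only cluster that carries this symbol alone. Rps4l, whose name also fits the rule, fell as well (-0.46 on the log2 scale). No cluster carries the symbol Rps4l alone, so that gene was not counted as a member and is described below with the paralogs. Rps4l is not among the 84 protein-coding genes that RefSeq lists under these names.

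**Figure D2:**
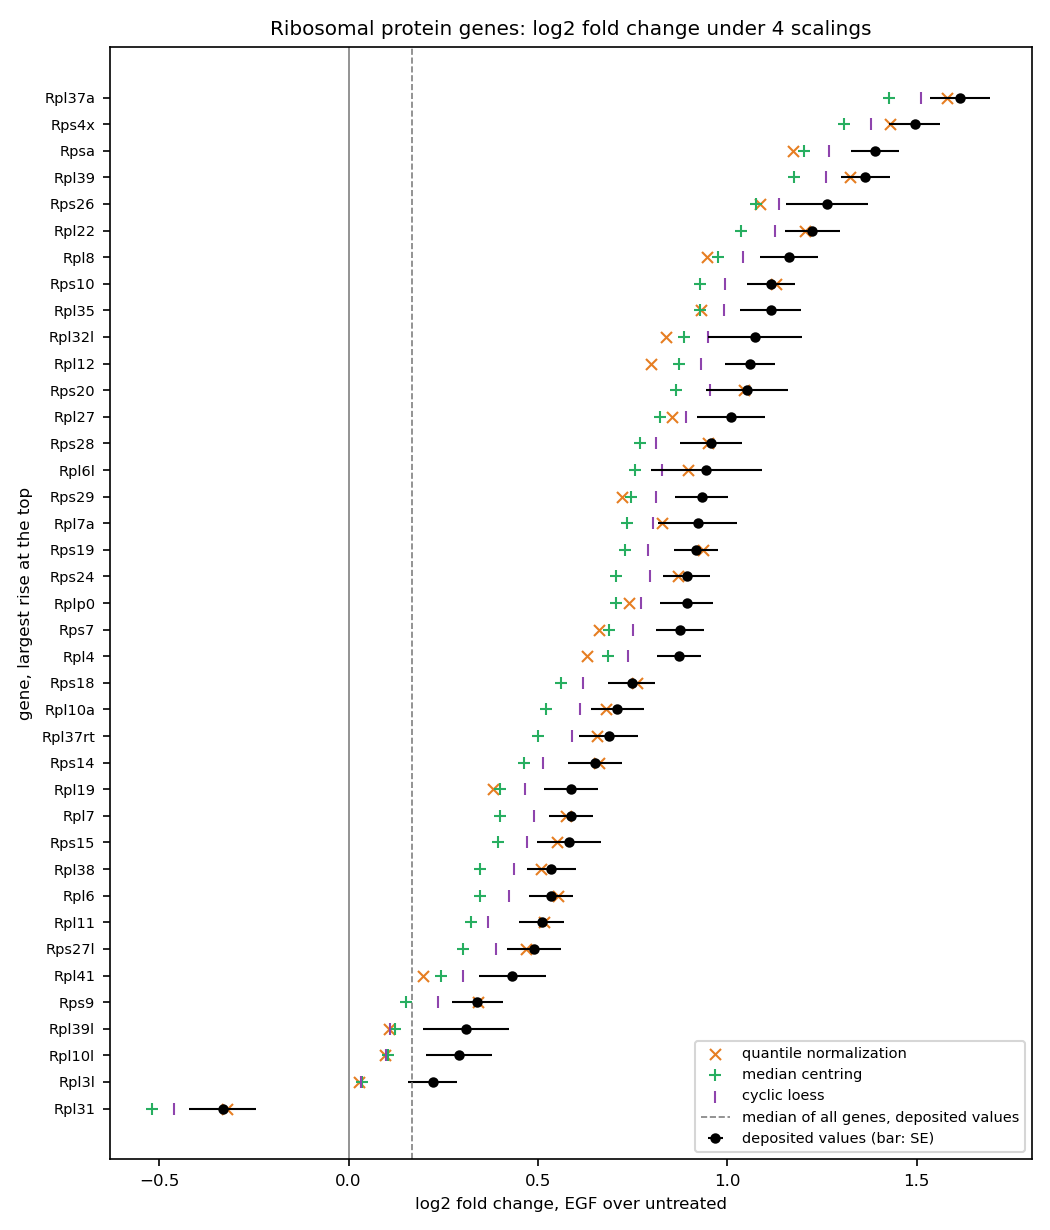
Log2 fold change, EGF over untreated (x axis), of the 39 ribosomal protein genes (rows) from the deposited values (black, bar: SE, 4 arrays a group) and after quantile normalization (orange), median centring (green) and cyclic loess (purple). The other scalings move the points to the left for most genes, and the dashed line marks the median of all genes in the deposited values, 0.17.

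The counts were little changed and the sizes smaller when the arrays were scaled again. Quantile normalization, median centring and cyclic loess brought the median of all genes to 0.01, -0.02 and -0.01. After them 35, 34 and 35 members rose and 1 fell in each, and the family's medians were 0.74, 0.70 and 0.77. Against these counts 23.7%, 18.7% and 20.6% of all genes rose, and 24.8%, 27.8% and 27.3% fell. Taken relative to the median of all genes the family stood at 0.72 in the deposited values and at 0.73, 0.72 and 0.78 after the 3 scalings. The members that no longer passed were Rpl39l, Rpl10l and Rpl3l under each scaling, and Rps9 under median centring. Under median centring the changes of Rpl11, Rps27l and Rpl31 were 0.32, 0.30 and -0.52, all still past the threshold.

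**Figure D3:**
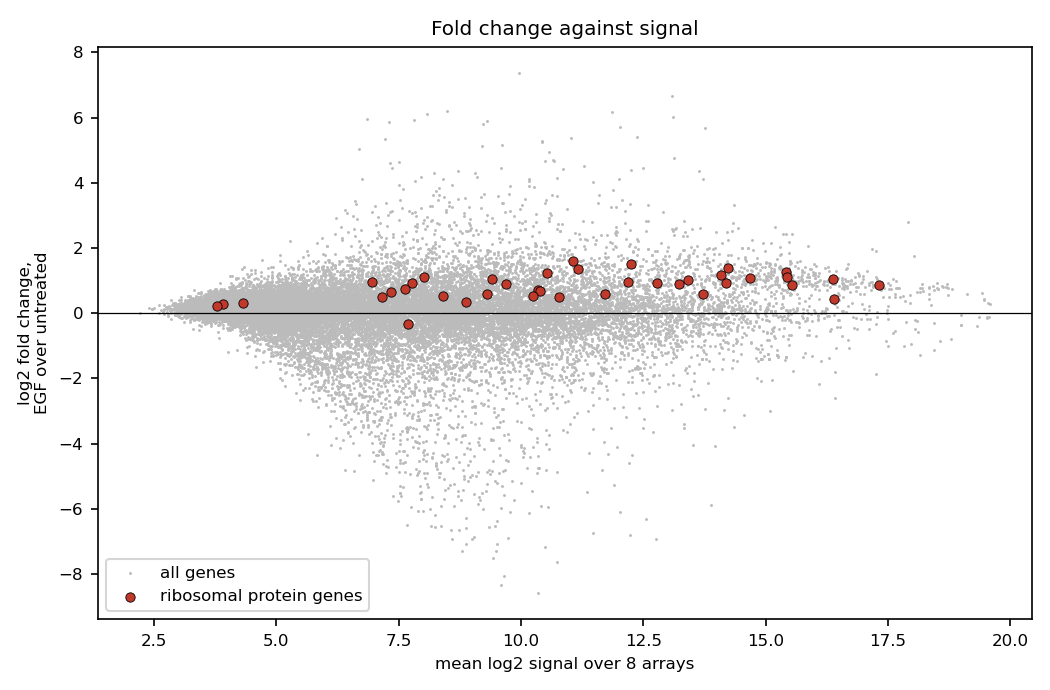
Log2 fold change, EGF over untreated (y axis), against the mean log2 signal over the 8 arrays (x axis) for all 30738 genes (grey) and the 39 ribosomal protein genes (red). The red points lie between 0.22 and 1.61 across the range of signals, except Rpl31 at -0.33, and the 3 members below a mean of 6 lie nearest to 0 among those that rose.

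Ribosomal protein genes have many processed copies in the mouse genome, so a cluster can read more than the gene it names. For 33 members the ID of the cluster names the chromosome that RefSeq gives for the gene, as it does for 99.6% of all genes with a chromosome. For 6 members, Rpl12, Rpl27, Rpl31, Rpl35, Rpl41 and Rpl7a, it names another. All 33 of the first kind rose (median 0.87). Of the 6 others 5 rose and 1 fell (median 0.97).

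Rpl41, a tiny basic peptide at the subunit interface, shows how much the choice of cluster can matter. The brighter cluster read 16.78, 16.48, 16.61 and 16.57 on the EGF arrays, against 16.14, 16.29, 16.01 and 16.27 on the untreated arrays (log2 fold change 0.43 ± 0.09, adjusted p = 0.0019). After quantile normalization it was 0.20 (adjusted p = 0.0424) and after median centring 0.24 (adjusted p = 0.0349). The cluster whose ID names the gene's own chromosome read 8.89, 8.80, 8.81 and 8.85 with EGF, against 8.81, 8.80, 8.65 and 8.77 without. In a fit over every cluster its difference of 0.08 ± 0.07 did not pass (adjusted p = 0.364). For Rpl27 the same fit gave 1.01 for the brighter cluster and 0.48 for the one on the gene's chromosome, for Rpl35 1.11 and 0.73, and for Rpl7a 0.92 and 0.73, all of which rose. Rps26 had 3 clusters: 1.26 for the one on its chromosome, 1.21 for another bright one, and 0.18 ± 0.10 for one near the floor of the array, which did not pass (adjusted p = 0.141).

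**Figure D4:**
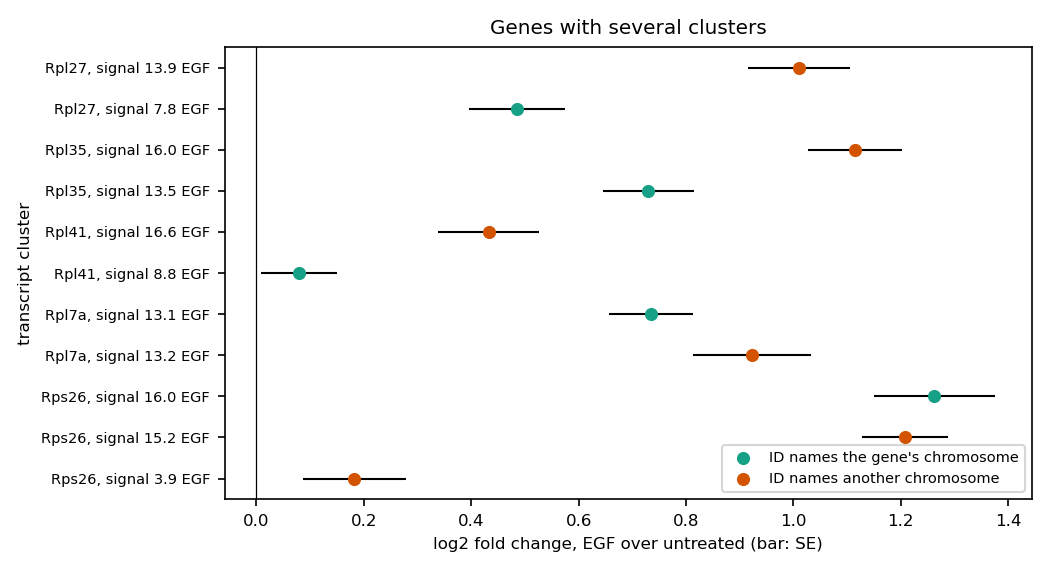
Log2 fold change, EGF over untreated (x axis, bar: SE, 4 arrays a group), of each cluster of the 5 ribosomal protein genes that have several, labelled with its mean log2 signal on the EGF arrays. Green marks a cluster whose ID names the gene's chromosome and orange another; the green point lies left of the orange one for Rpl27, Rpl35, Rpl41 and Rpl7a.

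Clusters that carry the symbol of a family gene together with other symbols were left out as members, and most went the same way. There were 53 of them, with 50 rises, 1 fall and a median of 0.99. The lowest log2 fold change among them, -0.46, equals that of Rps4l, which was read as 1 gene and is described below as a paralog. It is not to be counted as a further fall beside that of Rps4l. The 208 clusters named as ribosomal protein pseudogenes had 204 rises, 0 falls and a median of 1.02 (limma, adjusted p under 0.05). Over every cluster of the array 32.3% rose and 12.2% fell. A pseudogene cluster can read messages of the parent gene, and which of them its probes read was not tested.

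The paralogs Rpl7l1 and Rps4l fell while their parent genes rose, and Rpl22l1 rose less than Rpl22. Of 9 listed relatives 7 were measured, of which 5 rose and 2 fell, and 2 rose and 2 fell under each of the 3 other scalings. In the deposited values 39.7% of all genes rose and 20.7% fell. For 4 of 8 pairs both genes had a cluster, and the difference between the paralog's and the parent's log2 signal was compared between groups with a two-sided exact permutation test over the 8 arrays. Each of the 4 differences fell with EGF, without overlap between the groups, and each had an exact p of 0.0286, the smallest that 4 against 4 arrays allow, and an adjusted p of 0.0286 over the 4 pairs. The pair of Rpl39l and Rpl39 says little about the paralog, since Rpl39l read below the median of every array and its difference mostly restates the rise of Rpl39. A difference of log2 signals shows unequal change, not that either gene is unchanged.

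Rpl7l1, a Rpl7-like protein of pre-ribosomes, read 11.32, 11.19, 11.14 and 11.16 on the EGF arrays, against 11.61, 11.76, 11.61 and 11.62 on the untreated arrays. It fell by 0.45 ± 0.07 on the log2 scale (adjusted p = 0.00025), while Rpl7 rose by 0.59, a difference of -1.03 ± 0.06. Rps4l is an autosomal copy of Rps4x in the mouse and is not among the protein-coding genes that RefSeq lists for the family. It read 5.21, 5.04, 5.13 and 4.86 with EGF, against 5.39, 5.27, 5.74 and 5.67 without. It fell by 0.46 ± 0.12 (adjusted p = 0.0075) against the rise of 1.49 of Rps4x, a difference of -1.95 ± 0.16. Rps4l read not far above the array medians of 4.56 to 4.82, and most of that difference restates the rise of Rps4x. Both falls also passed under each of the 3 other scalings.

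Rpl22l1, which can take the place of Rpl22 in mouse ribosomes, rose less than Rpl22 did. It read 9.60, 9.37, 9.13 and 9.42 on the EGF arrays, against 8.97, 8.74, 8.51 and 8.76 on the untreated arrays, a log2 fold change of 0.63 ± 0.12 (adjusted p = 0.0011). The difference from Rpl22 was -0.59 ± 0.12. For Rpl39l against Rpl39 the difference was -1.05 ± 0.14. The start windows of these paralogs also hold pyrimidine runs in the same build, at chr16:10170208-10170237 on the plus strand for Rpl39l and chr3:28805488-28805517 on the plus strand for Rpl22l1.
Rpl39l: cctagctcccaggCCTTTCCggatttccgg
Rpl22l1: cgtgcgtgcggcgcaagcccgTTCTCTTCC

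Other genes of the translation machinery were set beside the family as fixed gene lists. The list of elongation factors and other messages with a TOP start went with the ribosomal proteins. The start sequences of this list were not examined here. All 19 measured genes of 24 rose (median 0.72), 6 of them at least 2-fold, against 39.7% and 6.25% of all genes. Under quantile normalization, median centring and cyclic loess 17, 16 and 19 rose, against 23.7%, 18.7% and 20.6% of all genes. The initiation factor Eif4b, a known TOP message, read 15.02, 15.12, 14.95 and 14.92 on the EGF arrays, against 13.45, 13.48, 13.41 and 13.33 on the untreated arrays (log2 fold change 1.58 ± 0.07). Eef1b2, an exchange factor of elongation, rose by 1.37 ± 0.06, and the initiation subunits Eif3e and Eif3f by 1.23 ± 0.08 and 1.13 ± 0.06. The adjusted p-values of the 4 genes ran from 2.3e-08 to 7.0e-07.

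Among the genes that make ribosomes, falls outnumbered rises, while over all genes 39.7% rose and 20.7% fell. Under median centring 18.7% of all genes rose and 27.8% fell. The ribosome assembly list had 44 of its 48 genes measured, with 25 falls, 8 rises and 11 genes that passed in neither direction (median -0.23). Under median centring it had 32 falls, 6 rises and a median of -0.42. The largest changes were the falls of Ltv1, a factor of small-subunit export (-2.04 ± 0.10), Bop1 of large-subunit maturation (-2.03 ± 0.07), Rrp12 (-1.87 ± 0.08) and Heatr1 of the early small-subunit precursor (-1.76 ± 0.08). Bop1 read 7.30, 7.11, 7.30 and 7.18 with EGF, against 9.26, 9.26, 9.32 and 9.17 without, and the groups lay far apart. The rRNA transcription list, measured in 14 of 15 genes, had 10 falls and 1 rise (median -0.36, and -0.54 under median centring).

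Myc, a transcription factor that drives ribosome production in many cells, read 10.38, 9.93, 9.80 and 9.84 on the EGF arrays, against 11.15, 11.35, 11.41 and 11.19 on the untreated arrays. Every EGF array was lower (log2 fold change -1.29 ± 0.13, adjusted p = 1.1e-05). Taf1a and Ubtf, both factors of RNA polymerase I at the rRNA promoter, fell by 1.13 ± 0.07 and 0.97 ± 0.07, and the polymerase I subunit Polr1e fell by 0.58 ± 0.06. These are message levels, and rRNA itself was not measured.

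The remaining lists held both rises and falls, where 39.7% of all genes rose and 20.7% fell. Under quantile normalization, median centring and cyclic loess 23.7%, 18.7% and 20.6% of all genes rose, and 24.8%, 27.8% and 27.3% fell. The TOP list itself holds the initiation factors Eif4b, Eif3e, Eif3f, Eif3h, Eif3k, Eif3l and Eif2s3x, all of which rose. Initiation factors outside the TOP list, 21 of 27 measured, had 6 rises and 10 falls (median -0.13). Under quantile normalization, median centring and cyclic loess the rises numbered 6, 3 and 5, the falls 11, 13 and 12, and the medians were -0.33, -0.32 and -0.25. The largest changes were rises of Eif3m (1.09 ± 0.08), Eif2b2 (1.08 ± 0.10) and Eif3i (0.96 ± 0.08) and a fall of the scaffold Eif4g3 (-0.90 ± 0.07). Termination, recycling and quality control genes, 12 of 14 measured, had 3 rises and 8 falls (median -0.51), the largest being falls of the ribosome-binding protein Habp4 (-1.11 ± 0.08), the collision sensor Zfp598 (-0.65 ± 0.08), the release factor Etf1 (-0.55 ± 0.07) and Eif2d (-0.54 ± 0.09).

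The list of mTORC1, LARP1 and S6 kinase genes, 14 of 16 measured, had 7 rises and 3 falls, beside 39.7% and 20.7% of all genes. Its median was 0.15, 0.06 under quantile normalization, 0.04 under cyclic loess and -0.04 under median centring. Eif4ebp1, the repressor of cap-dependent initiation that mTORC1 inactivates, read 11.62, 11.54, 11.50 and 11.59 on the EGF arrays, against 9.57, 9.46, 9.18 and 9.40 on the untreated arrays (log2 fold change 2.16 ± 0.09, adjusted p = 1.4e-08). Eef2k, the kinase that slows elongation, rose by 1.40 ± 0.07. Tsc2, which restrains mTORC1, fell by 0.72 ± 0.07, and Larp1, the binding protein of TOP messages, by 0.61 ± 0.08.

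**Figure D5:**
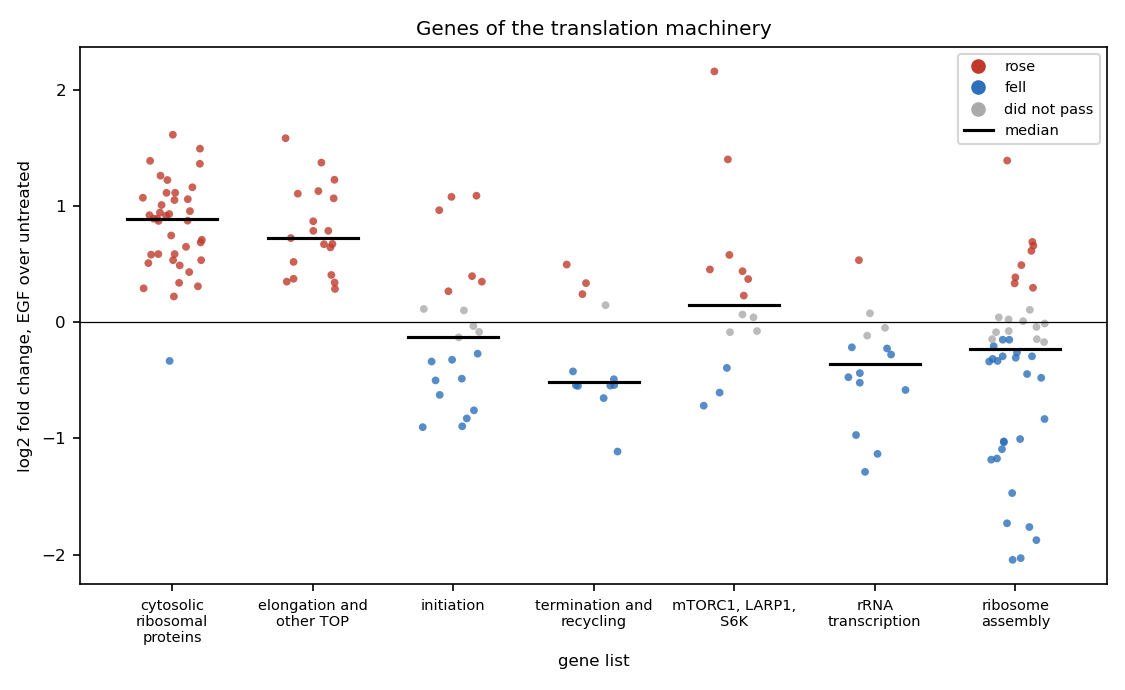
Log2 fold change, EGF over untreated (y axis), of each measured gene of the ribosomal protein family and of 6 gene lists of the translation machinery (x axis), coloured by whether it rose (red), fell (blue) or did not pass (grey), with the median of each as a bar. The medians are 0.89 for the family and 0.72 for elongation and other TOP genes, and -0.36 and -0.23 for rRNA transcription and ribosome assembly.

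The mitochondrial ribosomal protein genes, which serve the separate ribosome of that organelle, had about as many falls as rises. Among 74 measured, 23 rises stood beside 25 falls, with a median of 0.01, where 39.7% of all genes rose and 20.7% fell. Under median centring there were 15 rises beside 34 falls, where 18.7% of all genes rose and 27.8% fell. No test between the 2 families was run.

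Markers of the cells that such cultures can hold moved with the treatment as well, and their part in the rise of the family was not tested. Over all genes 39.7% rose and 20.7% fell in the deposited values. Beside the 8 ependymal markers, all 10 microglial markers fell, with a summed linear signal of 437 to 533 on the EGF arrays, against 2977 to 6950 on the untreated arrays. Of 7 neuronal markers 6 fell (1626 to 1800 with EGF, against 9159 to 12247 without), and all 6 fibroblast markers fell (463 to 512, against 1556 to 3523). Astrocyte markers moved in both directions, 4 of 6 up and 2 down. Aldh1l1 and the glutamate transporter Slc1a2 rose by log2 fold changes of 3.36 ± 0.12 and 2.36 ± 0.07, while the water channel Aqp4 and the filament protein Gfap fell by 1.31 ± 0.06 and 0.48 ± 0.08. The groups did not overlap for these 4 markers, but the summed signals of the list did (105262 to 127651 on the EGF arrays, against 105491 to 117118 on the untreated arrays). Of the 4 measured oligodendrocyte markers 2 fell (301 to 401, against 388 to 423), and of 4 endothelial markers 3 rose and 1 fell (87.6 to 98.9, against 84.8 to 154), and 1 rose and 1 fell under each of the 3 other scalings. The summed signals of an array have no true 0, so no marker can be called absent.

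The authors' deposited table of ctrl against gf lists 4136 clusters, each with an absolute log2 difference of at least 1, and holds the clusters of 2 family members. Another 5 of its clusters carry the symbol of a family gene together with other symbols. For Rps4x the authors' deposited table gives 12.97 for gf and 11.80 for ctrl, a difference of 1.17 (FDR 0.0125). For Rpl31 the authors' deposited table gives 7.67 for gf and 8.94 for ctrl, a difference of -1.27 (FDR 0.0124). From the deposited signals Rpl31 averaged 7.53 ± 0.10 on the EGF arrays and 7.86 ± 0.15 on the untreated arrays (SD, n = 4 each), a smaller distance than in that table. The other 12 members that rose at least 2-fold here are not in the authors' deposited table. Over its clusters, the sign of gf minus ctrl in the authors' deposited table was that of EGF minus untreated here in 3519 of 4136. Pearson's r between the 2 was 0.74. The first less the second ran from -1.87 at the 5th percentile to 2.30 at the 95th, and why they differ was not tested.

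Array 3 was more often the lowest of its group than any other array, in both groups. The median signal over the 39 genes was 11.16, 11.06, 11.16 and 11.24 on EGF arrays 1 to 4, against 10.44, 10.23, 10.12 and 10.26 on untreated arrays 1 to 4. Untreated array 3 was the lowest of its group, ties included, in 26 of the 39 genes, and EGF array 3 in 19. The 2 groups did not overlap in this median, and leaving out untreated array 3 gave a family median log2 fold change of 0.85 with 37 genes rising.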

How the data were processed

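RNA of 8 samples was labelled and read on 1 whole-transcript mouse array each. The authors deposited log2 signals per transcript cluster; the log2 scale was inferred from their range, and their centring is unknown. Per the submitters' processing notes, which give neither versions nor roles, RMA, affy and limma were used. The genome build behind the array is not given in the sources used. A second table holds, per the file headers, bi-weight averages on the log2 scale, an ANOVA p-value and an FDR p-value for ctrl against gf; it was used for description only.

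Of 65956 clusters 30638 carried 1 symbol in the platform annotation, 2176 several and 33142 none; 654 of the second kind resolved to 1 gene. This gave 30738 genes, 30736 of them in the RefSeq table (GRCm38.p6). Deposited values were fitted without a filter or further scaling in limma 3.58.1 (R 4.3.3; lmFit, eBayes), two-sided, and p-values were adjusted over all genes by Benjamini-Hochberg (threshold 0.05). Fold changes are EGF over untreated, and errors of fold changes are standard errors of this fit. Paralog pairs used an exact permutation test (SciPy 1.17.1). The steps were tested on simulated data. Other scalings, thresholds, cluster choices, weights, a replicate block and leaving out arrays were tried as alternatives. The number of arrays limits the precision.

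Members and gene lists were chosen with earlier results of these data known. Values on each array are given for the 6 largest and 6 smallest changes among members that passed, for a fixed set of members and paralogs, and up to 4 genes of each list are given by fold change; those of the lists shown by array were picked with their values known. Rps6, Rpl5, Rpl3, Rps27, Rpl10, Rplp1, Rplp2, Rps27a, Rpl36al and Rps27rt of the fixed set are not analysed here.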

Additional observations from a re-analysis of the deposited data

Results flagged for a closer look

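In groups of 4 arrays, a value was marked where it stood apart from the other 3 by more than Dixon's critical value. Of 40 groups (19 named family members and paralogs in both treatments, and the member medians) 2 were marked, and chance alone marks about 1 in 20, or 2. Untreated array 3 read 10.35 for Rpl39, while the other 3 untreated arrays all read 10.52. Untreated array 2 read 11.76 for Rpl7l1, while the others read 11.61 to 11.62. Neither changed a call: Rpl39 rose and Rpl7l1 fell without each array in turn.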

How the results depend on the processing

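The count of members that rose stayed between 34 and 38 under the 3 scalings, array weights, the mean over clusters, a trended robust eBayes, the stricter threshold of 0.01 and leaving out each array, and the family's median was 0.85 to 0.90 without 1 array. The median moved to 0.74 (quantile normalization), 0.70 (median centring) and 0.77 (cyclic loess). Tested against a 1.5-fold change (treat), 21 members rose and 0 fell (8.15% and 8.74% of all genes).

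Alternatives added after seeing the data were these. With the cluster on the gene's chromosome, 37 members remained measurable, 36 rose, 0 fell (Rpl31 and Rpl12 then have no cluster) and the median was 0.75. Of all genes 39.7% rose and 20.7% fell in that setting. With Rps3a1, Rpl7l1 and Rpl22l1 counted as members, 40 of 42 rose and 2 fell. Among values of single named genes, none reversed, 326 kept their side of the threshold and 30 no longer passed; Rpl39l did not pass without EGF array 2, 3 or 4 or untreated array 2 or 3 (adjusted p up to 0.0989).

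Without 1 array the paralog differences were -1.08 to -1.01 (Rpl7l1), -0.66 to -0.50 (Rpl22l1), -1.14 to -0.93 (Rpl39l) and -2.04 to -1.83 (Rps4l), where 3 against 4 arrays allow no exact p below 0.0571. Same-numbered arrays of the groups showed no positive correlation of their deviations (r from -0.08 to -0.003 across genes). Differently numbered arrays gave r from -0.17 to 0.17. Such values cannot tell whether same-numbered arrays shared a culture, and the main fit used no pairing. The fit with the replicate block gave 38 rises, 1 fall and a median of 0.89.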
